A study of Homo sapiens with 6 samples.

Results

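Cadherins, protocadherins and the catenins bound to them were examined in MDA-MB-231, a human triple-negative breast cancer cell line, and in a derivative of it resistant to Adriamycin (ADR, doxorubicin). The genes were taken by name, in a choice of family made with earlier results of these data known: the protein-coding genes whose symbols begin with CDH and a digit or with PCDH, the desmocollins DSC1 to DSC3, the desmogleins DSG1 to DSG4, and the catenins CTNNB1, CTNNA1, CTNND1 and JUP. There were 100 such genes among the 58735 genes listed, of which 19951 were protein-coding. Of the 100, 53 belong to the clustered protocadherins and 47 do not. The clustered genes were described apart from the others.

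Parent cells (3 libraries, genotype given as WT) were compared with ADR-resistant cells (ADRr, 3 libraries). All 6 samples were MDA-MB-231 cells grown in the same serum-containing medium. According to the study's methods, resistance was selected with stepwise increasing ADR and clones were then isolated by limiting dilution. ADRr is therefore 1 resistant line, and whether ADR was present at harvest is not given in the sources used here. No cloning of the parent cells is described, so resistance and the isolation of a clone cannot be told apart in this comparison. Nothing in the labels says that the 3 libraries of a group came from separate cultures, so p-values measure only the spread between these libraries. The design text of the series speaks of 3 time points, which no sample label gives. Here each group's 3 libraries are taken as replicates, and if they were time points the SDs, SEs and p-values would include differences over time.

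Classical cadherins are calcium-dependent adhesion proteins that bind their like on the neighbouring cell and are tied to the actin cytoskeleton through catenins. E-cadherin (CDH1) is the classical cadherin of epithelia, and in carcinoma cells of mesenchymal character its expression is commonly low while N-cadherin (CDH2) is commonly present. Desmosomal cadherins (desmogleins and desmocollins) are linked to keratin filaments through plakoglobin, plakophilins and desmoplakin. Clustered protocadherins are encoded in 3 tandem arrays, alpha, beta and gamma, best known for giving neurons individual surface identities. In the alpha and gamma arrays each variable first exon has its own promoter and is spliced to constant exons shared by the array, whereas beta genes have no such constant exons.

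Library totals ranged from 15983985 to 18272314 counts, and a gene with no count could have had up to 0.164 to 0.188 CPM (counts scaled to library size, 3 counts of a library's total). Values below are TMM-normalized counts per library unless stated, that is, counts brought to a common library size. A gene was called higher or lower in ADRr at an adjusted p of at most 0.05 (edgeR's quasi-likelihood test, Benjamini-Hochberg over all 15242 genes that passed the low-count filter) together with a change of at least 1.2-fold. The labelled tumour type was checked against receptor genes: PGR had no counts, ESR1 had at most 1 count in any library, and ERBB2 was measured at 2059 ± 164 (SD, n = 3) in parent and 869 ± 46.4 in ADRr cells. Endothelial, neural and leukocyte marker lists were summed to look for RNA of other cells. Their sums were higher in ADRr, at 47.0 to 59.1 CPM in parent and 139 to 148 in ADRr for 9 endothelial genes (mostly ROBO4), 6.22 to 7.63 and 15.4 to 17.6 for 10 neural genes, and 53.5 to 57.6 and 89.6 to 95.4 for 8 leukocyte genes (mostly LAPTM5). The defining leukocyte gene PTPRC had at most 2 counts, TYROBP had none, and CDH5, the cadherin that defines endothelium, had at most 2 counts in any library.

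Most of the family was silent or nearly so. In every library 30 of the 100 genes had no count, another 36 never exceeded 9 counts, and 29 passed the filter and were tested. Of those 29, 6 were called higher in ADRr and 13 lower, which is 20.7% and 44.8% of the tested members. Over all tested genes 29.2% were called higher and 29.6% lower (58.8% in all), against 65.5% of the tested members. The libraries of the 2 groups did not overlap for 72.4% of tested members and for 69.2% of all tested genes. The median log2 fold change was -0.64 over the 29 members and -0.01 over all genes tested. The filter bears on these counts: 19 members passed its minimum in every library of both groups, and 13 of those were called, while 9 passed it in every library of 1 group only, and 6 of those were called. Of these 6, CDH23 and PCDHB2 passed it in every ADRr library only, and both were called higher. CDH2, PCDHB12, PCDHGA1 and PCDHGA9 passed it in every parent library only, and all were called lower. The direction of these calls is therefore not independent of the filter. Members that are low in both groups could not enter the test.

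The type I (classical) cadherins changed in both directions. Of 5 genes, 4 were tested and all 4 were called, CDH4, CDH1 and CDH2 lower and CDH3 higher. Over all tested genes 58.8% were called. CDH4 (R-cadherin, chr20:61252426-61940617, GRCh38) had the highest counts of the class. Its parent libraries held 1962, 1933 and 1964 normalized counts and its ADRr libraries 1269, 1196 and 1166. The groups lie well apart, and the log2 fold change was -0.69 ± 0.0584 (SE, adjusted p = 5.6e-10).

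CDH1 (E-cadherin, chr16:68737225-68835548) was present in parent cells at 250, 280 and 227 normalized counts and in ADRr cells at 122, 139 and 101. Every ADRr library was below every parent library, and CDH1 fell by 1.07 on the log2 scale (SE 0.136, adjusted p = 3.7e-07). CDH3 (P-cadherin, chr16:68636189-68722616) lies upstream of CDH1 on the same strand, with 14608 bases between the genes, and moved the opposite way. CDH3 had 17.5, 11.9 and 15.6 normalized counts in parent and 91.4, 73.3 and 70 in ADRr libraries. P-cadherin thus stayed a low transcript, but every ADRr library exceeded every parent library, by a log2 fold change of 2.37 ± 0.27 (adjusted p = 6.8e-08). The 50 nearest tested genes around this pair (25 on each side) had a median log2 fold change of -0.09. The difference from that median was -0.98 for CDH1 and 2.46 for CDH3.

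CDH2 (N-cadherin, chr18:27950966-28177446) was a minor transcript here, and it passed the filter's minimum in every library of the parent group only. Parent libraries held 24.7, 38.9 and 31.2 normalized counts and ADRr libraries 8.56, 12.6 and 10.3, a log2 fold change of -1.59 ± 0.365 (adjusted p = 0.00059). E- and N-cadherin were therefore both lower in ADRr. CDH15 (M-cadherin of muscle) was not tested, with 2 counts over the parent libraries and 10 over the ADRr libraries, a ratio of 4.75 whose 95% interval for counting error runs from 1.01 to 44.6. Ratios of summed counts, here and below, are adjusted for library size, and their intervals cover counting error only.

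**Figure D1:**
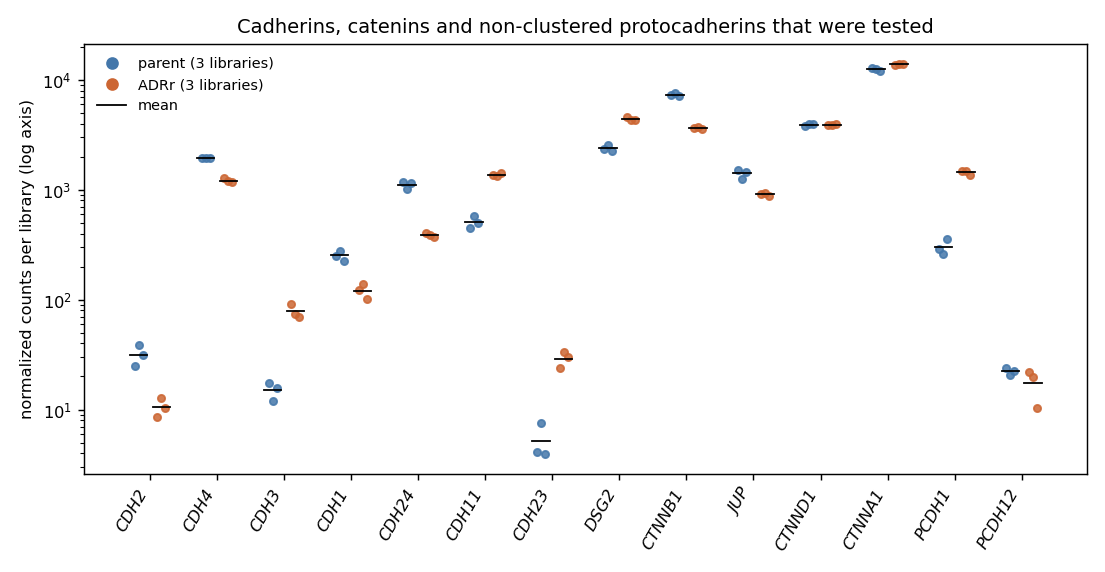
Normalized counts per library on a log axis for the 14 tested genes outside the protocadherin clusters, with points for libraries (blue, parent; orange, ADRr) and bars for group means. The ADRr points lie above the parent points for CDH3, CDH11, CDH23, DSG2, CTNNA1 and PCDH1, below them for CDH2, CDH4, CDH1, CDH24, CTNNB1 and JUP, and among them for CTNND1 and PCDH12.

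The tested type II cadherins, CDH24 and CDH11, moved in opposite directions. CDH24, a type II cadherin that binds catenins (chr14:23047062-23057538), had 1172, 1023 and 1155 normalized counts in parent libraries and 408, 391 and 372 in ADRr libraries. It fell by 1.52 on the log2 scale (SE 0.0789, adjusted p = 1.1e-13), a 2.86-fold lower level. CDH11 (OB-cadherin, typical of mesenchymal cells, chr16:64943753-65126112) had 449, 581 and 496 normalized counts in parent libraries and 1361, 1324 and 1420 in ADRr libraries. It rose by 1.43 ± 0.0808 on the log2 scale (adjusted p = 4.7e-13), a 2.69-fold higher level. For both genes the groups were far apart, and the 50 nearest tested genes had medians of 0.15 around CDH24 and 0.01 around CDH11. Of the other 11 type II cadherins, 8 had no count and CDH20, CDH5 and CDH6 had at most 6 in any library.

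Because genes differ in length, the cadherin repertoire was compared per length, as each gene's share of the summed FPKM of the 23 genes named CDH. CDH24 made up 47.1, 42.9 and 46.7% of that sum in parent libraries and 25.7, 25.6 and 24.9% in ADRr libraries. CDH11 went the other way, from 5.05, 6.81 and 5.61% to 24.0, 24.3 and 26.6%. CDH4 held a similar share in both groups, 40.6 ± 0.57% (SD, n = 3) in parent and 40.2 ± 0.542% in ADRr cells, while its own level was lower. CDH1 accounted for 6.26 ± 0.791% and 4.76 ± 0.724%, and CDH3 for 0.367 ± 0.0623% and 3.05 ± 0.354%. By mean FPKM, CDH24 (17 ± 1.26) and CDH4 (15.2 ± 0.146) led in parent cells. In ADRr cells CDH4 (9.45 ± 0.41) led, followed by CDH24 (5.97 ± 0.273) and CDH11 (5.87 ± 0.225), and the last pair differed by less than the spread between libraries. Shares of a fixed sum are not independent of each other, and no test was run on them.

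**Figure D2:**
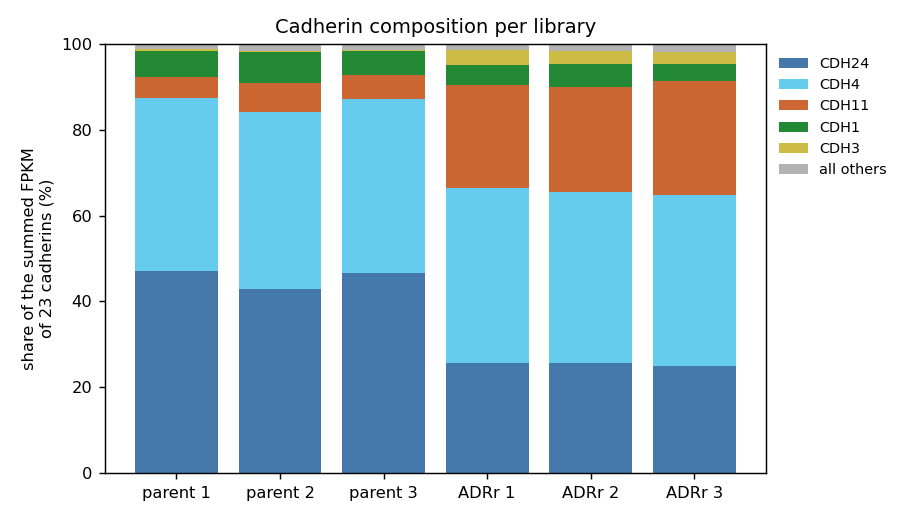
Stacked bars from 0 to 100% giving, for each library, the share of the summed FPKM of 23 cadherins that each gene holds. CDH24 takes 42.9 to 47.1% of the parent bars and 24.9 to 25.7% of the ADRr bars, CDH11 takes 5.05 to 6.81% and 24.0 to 26.6%, and the CDH4 block stays near 40.6 and 40.2%.

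Of the atypical cadherins only CDH23 was tested, and it passed the filter's minimum in every library of the ADRr group only. CDH23 (tip-link cadherin of inner-ear hair cells, chr10:71396934-71815947) was detected at 4.12, 7.57 and 3.90 normalized counts in parent and at 23.8, 33.5 and 29.9 in ADRr libraries. The groups did not overlap and the log2 fold change was 2.47 ± 0.427 (adjusted p = 2.5e-05), at levels of 0.016 and 0.0896 FPKM. Of its exon bases, 81.1% are free of overlap with another gene, the rest being shared with C10orf105. CDH13, CDH17 and CDH26 had at most 3 counts in any library, and CDH16 had none.

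DSG2 (desmoglein 2, the desmoglein of simple epithelia, chr18:31498043-31549008) was the only desmosomal cadherin expressed at more than a few counts. It was measured at 2361, 2543 and 2254 normalized counts in parent and at 4630, 4334 and 4336 in ADRr libraries. DSG2 rose by 0.89 on the log2 scale (SE 0.0557, adjusted p = 2.6e-12), or 1.86-fold, and every ADRr library was above every parent library. The 50 nearest tested genes on chromosome 18 had a median of 0.62, which leaves 0.27 for DSG2 over its surroundings. CDH2 lies on the same chromosome with the same neighbourhood median and fell. Whether the shift shared by that region has a part in the DSG2 value was not tested.

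No desmocollin, the other class of desmosomal cadherin, reached a testable level. DSC2 had 1, 2 and 3 counts in parent libraries and none in ADRr libraries. It was 2.11-fold lower when the ADRr group is set at the limit of 3 counts over its libraries. That value takes the parent counts as exact, so it is not a full lower bound. DSC1, DSC3, DSG1 and DSG4 had no counts, and DSG3 had at most 1 in any library. These are the desmosomal cadherins of stratified epithelium, apart from DSC2, which is found in simple epithelia too.

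The catenins split. CTNNB1 (beta-catenin, which binds the cadherin tail and is also the transcriptional effector of Wnt signalling, chr3:41194741-41260096) was measured at 7345, 7526 and 7101 normalized counts in parent and at 3625, 3758 and 3558 in ADRr libraries. It fell by 1.01 on the log2 scale (SE 0.049, adjusted p = 3.3e-14), 2.01-fold, with no overlap between groups. The 50 nearest tested genes on chromosome 3 had a median of -0.52, and CTNNB1 minus that median was -0.48. JUP (plakoglobin, the related catenin that also serves in desmosomes, chr17:41754604-41786931) was measured at 1527, 1259 and 1458 and at 919, 929 and 875 normalized counts. JUP fell by 0.64 on the log2 scale (SE 0.0717, adjusted p = 5.1e-08), but the 50 genes around it had a median of -0.52, so that its difference from them was -0.12. Whether these regional shifts have a part in either value was not tested.

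CTNNA1 (alpha-catenin, the link to actin, chr5:138610967-138935034) was the most abundant member per length, at 81.2 ± 2.46 FPKM in parent and 90.4 ± 1.37 in ADRr cells. It had 12843, 12599 and 12162 normalized counts in parent and 13722, 13907 and 14104 in ADRr libraries. The groups did not overlap, but the log2 fold change of 0.15 ± 0.0442 (adjusted p = 0.0048) was below the 1.2-fold limit, so CTNNA1 was not called. CTNND1 (p120-catenin, which holds cadherins at the cell surface, chr11:57753243-57819546) was measured at 3808, 3935 and 3987 normalized counts in parent and at 3915, 3881 and 3955 in ADRr libraries. The groups overlapped and the log2 fold change was 0.00 (adjusted p = 0.96), with an approximate 95% interval, built from the SE, from -0.09 to 0.10. Its exons overlap the read-through gene TMX2-CTNND1, and 95.4% of its bases are free of such overlap.

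Of the 13 non-clustered protocadherins, PCDH1 and PCDH12 were tested. PCDH1 (an epithelial and endothelial protocadherin, chr5:141853111-141879246) had 290, 260 and 353 normalized counts in parent and 1497, 1473 and 1358 in ADRr libraries. It rose by 2.26 on the log2 scale (SE 0.0896, adjusted p = 8.4e-16), 4.78-fold, the smallest adjusted p of any member. PCDH12 (VE-cadherin-2, an endothelial protocadherin, chr5:141943585-141969741) was measured at 23.7, 20.6 and 22.4 and at 21.9, 19.9 and 10.3 normalized counts, with overlap between groups (log2 fold change -0.36 ± 0.364, adjusted p = 0.39). PCDH1 and PCDH12 lie beyond the 3' end of the gamma cluster, and the genes around them had a median of 0.07. PCDH10 was listed at 0 in all parent libraries and at 4, 5 and 1 counts in ADRr libraries. It was 3.17-fold higher over a floor of 3 counts for the parent group, with the ADRr counts taken as exact. The remaining non-clustered protocadherins had at most 1 count in any library.

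The clustered protocadherins occupy chr5:140786136-141512981 (GRCh38), in the order alpha, beta, gamma. Their promoters are shown because each gene here is read from its own promoter. RefSeq windows from 250 bases before to 50 bases after a start (GRCh38.p14) were matched by symbol for 79 of the 100 members, some with several starts. Of 52 windows of clustered genes, 38 had the letters CGCTG, which hold the CGCT box known from these promoters, within 100 bases before the start on the gene's strand. On either strand and anywhere in the window CGCTG was found in 9 of 13 alpha, 12 of 14 beta and 25 of 25 gamma windows, and in 48% of all 35116 windows, so the letters alone are common. The longer run GTGGCGCT, chosen after the sequences had been seen and overlapping CGCTG by its last letters, was found in 13 of 14 beta windows, in no alpha or gamma window and in 1.15% of all windows. The stretches below run from 130 bases before the RefSeq start towards the start, end before the first annotated exon base, and are printed 5' to 3' on the plus strand with these motifs in capitals. They are the beta gene that was called higher (PCDHB2), 2 of the 3 beta genes called lower (PCDHB12 and PCDHB13), and 3 of the 4 gamma genes called lower. PCDHB14, the other beta gene called lower, is not shown because its RefSeq start lies inside the annotated gene, and its window held GTGGCGCT but no CGCTG on the gene's strand. PCDHGB1, the other gamma gene called lower, has more than 1 RefSeq start and is not shown.
PCDHB2, chr5:141094485-141094577: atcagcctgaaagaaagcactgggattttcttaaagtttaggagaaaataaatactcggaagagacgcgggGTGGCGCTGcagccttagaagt
PCDHB12, chr5:141208589-141208696: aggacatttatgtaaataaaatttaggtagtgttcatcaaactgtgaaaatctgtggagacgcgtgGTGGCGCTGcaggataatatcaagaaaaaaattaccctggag
PCDHB13, chr5:141213789-141213918: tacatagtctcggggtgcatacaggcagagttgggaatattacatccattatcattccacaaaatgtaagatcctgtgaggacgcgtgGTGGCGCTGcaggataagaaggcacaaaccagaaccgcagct
PCDHGA9, chr5:141402648-141402777: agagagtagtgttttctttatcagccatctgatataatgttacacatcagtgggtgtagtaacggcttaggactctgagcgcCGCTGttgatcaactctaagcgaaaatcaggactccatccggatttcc
PCDHGA1, chr5:141330384-141330513: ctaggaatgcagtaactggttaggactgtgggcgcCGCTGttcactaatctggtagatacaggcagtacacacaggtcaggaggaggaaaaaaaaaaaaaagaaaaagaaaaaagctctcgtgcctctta
PCDHGC3, chr5:141475836-141475946: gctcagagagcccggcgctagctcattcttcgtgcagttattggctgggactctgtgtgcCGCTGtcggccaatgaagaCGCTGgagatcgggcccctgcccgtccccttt
GTGGCGCT was found in the windows of all 4 called beta genes, the 1 higher and the 3 lower.

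Over the clusters, 15 of 53 genes were tested, 1 was called higher and 7 lower, with a median log2 fold change of -0.72. Outside the clusters 14 of 47 were tested, with 5 called higher and 6 lower. Over all tested genes 29.2% were called higher and 29.6% lower. The counts of calls here and in the paragraphs on the beta and gamma clusters are to be read beside those shares. Of the called clustered genes, PCDHB2, PCDHB12, PCDHGA1 and PCDHGA9 passed the filter's minimum in every library of 1 group only. The alpha cluster was almost silent, with at most 3 counts per library over its 15 genes together. PCDHA7 held most of these (2, 0 and 2 counts in parent and 3, 1 and 1 in ADRr libraries), PCDHA1 had at most 1, and no alpha gene was tested. Summed normalized counts were 382 ± 8.46 (SD, n = 3) in parent and 268 ± 25.4 in ADRr cells for the beta cluster, a ratio of 0.702. For the gamma cluster the sums were 545 ± 53.8 and 351 ± 5.17, a ratio of 0.645. In both clusters every ADRr library was below every parent library.

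In the beta cluster 7 of 16 genes were tested, of which 3 were called lower and 1 higher. PCDHB13, the beta gene with the highest mean FPKM, was measured at 145, 161 and 165 normalized counts in parent and at 96.1, 107 and 98.1 in ADRr libraries (log2 fold change -0.65 ± 0.142, adjusted p = 0.00037). PCDHB14, the next gene along the array, had 54.5, 63.8 and 77.9 and then 31.4, 28.3 and 28.0 normalized counts (-1.16 ± 0.245, adjusted p = 0.00025). For both genes the groups did not overlap. PCDHB12 had 21.6, 15.1 and 19.5 normalized counts in parent and 8.56, 5.23 and 10.3 in ADRr libraries (-1.20 ± 0.423, adjusted p = 0.016). PCDHB12 passed the filter's minimum in every library of the parent group only, and its call was not firm. The adjusted p was 0.087 in DESeq2, 0.064 without parent replicate 1 and 0.083 without ADRr replicate 2.

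PCDHB2 was the only clustered gene called higher, and it passed the filter's minimum in every library of the ADRr group only. It had 4.12, 7.57 and 2.92 normalized counts in parent and 26.6, 16.7 and 18.7 in ADRr libraries, a log2 fold change of 2.08 ± 0.475 (adjusted p = 0.00054). All ADRr libraries were above all parent libraries, at levels of 0.0675 and 0.288 FPKM. PCDHB11, second in FPKM within the array, had 60.7, 56.3 and 48.7 and then 50.4, 31.4 and 43.9 normalized counts, with overlap (-0.39 ± 0.244, adjusted p = 0.16). PCDHB9 and PCDHB10 were tested and not called, at 0.59 (adjusted p = 0.23) and -0.72 (adjusted p = 0.081). PCDHB9 was called higher without parent replicate 1 (1.29, adjusted p = 0.027) and PCDHB10 lower without ADRr replicate 3 (-1.13, adjusted p = 0.027). Among untested beta genes with 10 or more counts in a library, PCDHB8 had 5, 9 and 13 counts in parent and 13, 4 and 5 in ADRr libraries. PCDHB16 had 10, 10 and 4 and then 10, 9 and 8 counts, and PCDHB15 had 8, 15 and 6 and then 5, 14 and 9, so all 3 overlapped between groups. PCDHB6, untested, had 11 counts over the parent libraries and 2 over the ADRr libraries, a ratio of 5.79 with a counting interval from 1.26 to 53.8. PCDHB5, untested, had 7 counts over the parent libraries and none in ADRr. It was 2.46-fold lower over a floor of 3 counts for the ADRr group, with the parent counts taken as exact.

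In the gamma cluster 8 of 22 genes were tested, of which 4 were called lower and none higher, and all 8 log2 fold changes from edgeR were below 0. The filter bears on this direction: PCDHGA1, PCDHGA4, PCDHGA5 and PCDHGA9, with 2 of the 4 calls, passed its minimum in every library of the parent group only. PCDHGA9 had 14.4, 16.2 and 13.6 normalized counts in parent and 0, 1.05 and 0 in ADRr libraries. That is 43 counts against 1, a 45.3-fold difference with a 95% counting interval from 7.7 to 1829. The edgeR fit gave a log2 fold change of -5.04 ± 0.819 (adjusted p = 1.1e-05). PCDHGA1, the first gene of the array, had 24.7, 20.6 and 20.5 and then 2.85, 6.28 and 5.60 normalized counts (-2.14 ± 0.45, adjusted p = 0.00024). PCDHGC3, a C-type gene near the constant exons, had 83.4, 97.4 and 86.7 and then 33.3, 38.7 and 27.1 (-1.43 ± 0.22, adjusted p = 5.3e-06). PCDHGB1 had 141, 84.4 and 126 normalized counts in parent and 78.0, 61.7 and 69.1 in ADRr libraries (-0.75 ± 0.194, adjusted p = 0.0017). In each of these 4 genes the groups did not overlap, which was so for 69.2% of all tested genes.

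PCDHGB2, the gamma gene with the highest level, was not called. It had 217, 186 and 219 normalized counts in parent and 184, 182 and 194 in ADRr libraries (-0.15 ± 0.118, adjusted p = 0.26). The approximate 95% interval, built from the SE, ran from -0.39 to 0.08. The genes on either side of it, PCDHGA4 and PCDHGA5, were not called either, at -0.78 (adjusted p = 0.099) and -0.02 (adjusted p = 0.97), and PCDHGA6 was at -0.40 (adjusted p = 0.47). PCDHGA4 was called lower without ADRr replicate 2 (-1.21, adjusted p = 0.035). Of the untested gamma genes with 10 or more counts in a library, PCDHGB3 had 16, 4 and 10 counts in parent and 2, 3 and 4 in ADRr libraries, and PCDHGA10 had 8, 1 and 11 and then 1, 3 and 1. PCDHGB6 and PCDHGC5 each had 16 counts in parent and 3 in ADRr cells, a ratio of 5.62 with a counting interval from 1.61 to 30.1.

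**Figure D3:**
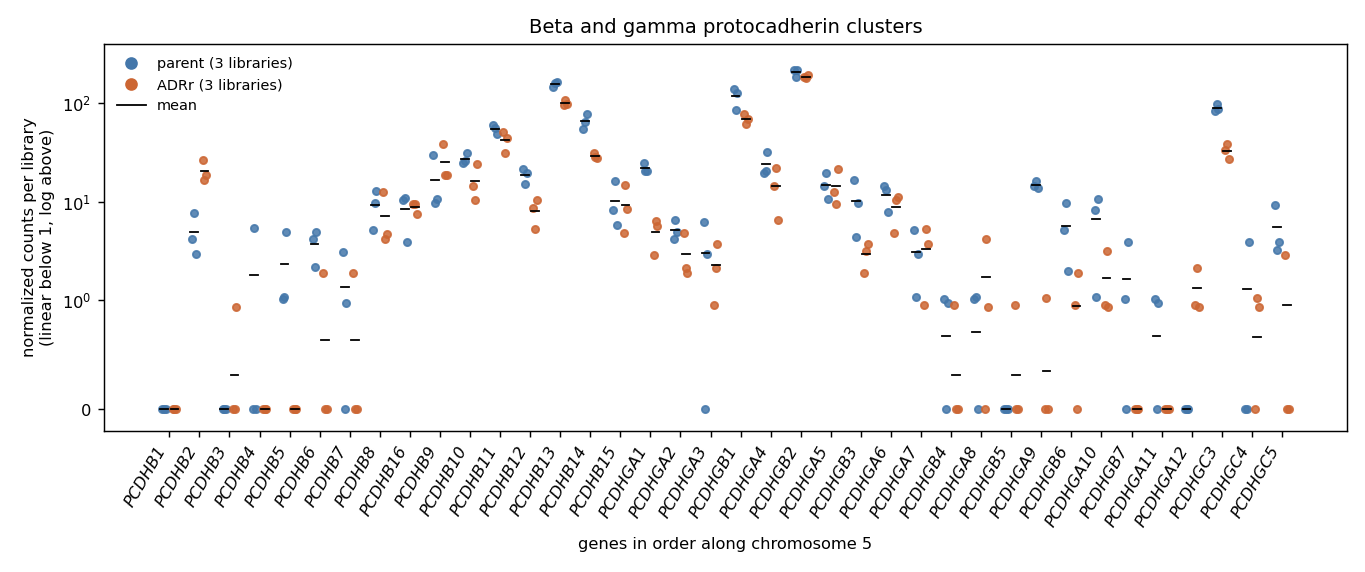
Normalized counts per library for the 38 genes of the beta and gamma clusters in chromosomal order (linear scale below 1, log scale above), with bars for group means. PCDHB13 and PCDHGB2 stand highest in their arrays. ADRr points lie above parent points for PCDHB2 and below them for PCDHGA9, PCDHGA1 and PCDHGC3.

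The counts of gamma genes come from part of each transcript. Every gamma gene shares its constant exons with the other 21, and 35.6 to 72.4% of a gamma gene's exon bases belong to it alone. Reads on shared bases cannot be given to a gene, so FPKM understates gamma and alpha genes. Per kilobase of its own exon bases, PCDHGB2 had 80.2 normalized counts in parent and 72.1 in ADRr cells, PCDHGB1 57.4 and 34.2, and PCDHGC3 27.4 and 10.2. Beta genes are close copies of one another, and reads that could not be placed among them were not followed here.

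Neighbouring genes of the clusters gave the following values, and whether a shift of the region has a part in the cluster values was not tested. TAF7, the only tested gene inside the interval that is not a member, was at a log2 fold change of 0.15 (adjusted p = 0.036) and not called. Of the 5 nearest tested genes on each side, IK (-0.87), HDAC3 (-0.58) and RELL2 (-0.57) were called lower and none higher. DIAPH1, the nearest on the gamma side, was at 0.11 (adjusted p = 0.051) and ZMAT2, nearest on the alpha side, at -0.04 (adjusted p = 0.55).

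Genes of proteins that dock to cadherins moved in both directions. Of 25 genes of the junctional plaque and the nectins, 20 were tested, 7 were called higher and 8 lower, with a median log2 fold change of -0.05. Over all tested genes, 29.2% were called higher and 29.6% lower. The counts of this and the following lists are to be read beside those shares. Chromosomal neighbours were not examined for the list genes, so whether regional shifts have a part in their values was not tested. DSP (desmoplakin, which anchors keratin to the desmosome) rose with DSG2, from 1748 ± 72.8 to 3744 ± 253 normalized counts (1.10 ± 0.0589, adjusted p = 1.9e-13). ARVCF, a relative of p120-catenin, rose from 64.4 ± 26.4 to 172 ± 16.2 (1.41 ± 0.20, adjusted p = 1.8e-06). The plakophilins of the desmosomal plaque diverged, PKP3 being called higher (0.58) and PKP2 (-0.53) and PKP4 (-0.41) lower. ACTN4 (alpha-actinin-4, an actin cross-linker) fell from 24359 ± 2048 to 10431 ± 646 normalized counts (-1.22 ± 0.057, adjusted p = 1.6e-14), and EVPL (envoplakin) fell from 1839 ± 126 to 1189 ± 35.9 (-0.63 ± 0.0629, adjusted p = 8.5e-09). VCL (vinculin, which reinforces alpha-catenin at actin) fell by 0.60. CTNNA2, CTNND2 and PKP1 had no counts.

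In the wider cadherin superfamily FAT1 had the largest decrease of the list. Of 18 genes, 11 were tested, 2 called higher and 4 lower (median -0.16). FAT1, a giant atypical cadherin that acts in Hippo signalling and cell polarity, fell from 7301 ± 388 to 1186 ± 15 normalized counts (-2.62 ± 0.0557, adjusted p = 1.9e-20). CELSR2, a planar cell polarity cadherin, fell from 1107 ± 73.1 to 248 ± 14.9 (-2.15 ± 0.0841, adjusted p = 6.3e-16), and FAT4 fell by 1.29. FAT3 (0.69 ± 0.167, adjusted p = 0.00096) and CELSR1 (0.38 ± 0.0712, adjusted p = 6.3e-05) were called higher. Relatives within the FAT and CELSR families therefore stood on opposite sides.

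**Figure D4:**
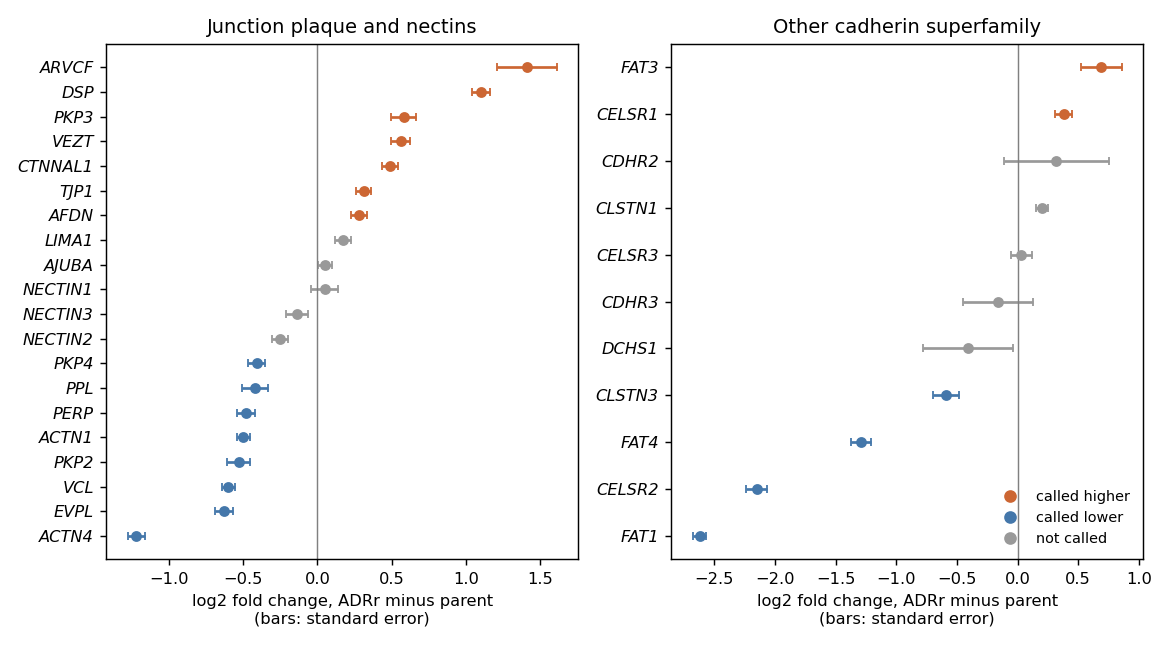
Log2 fold change (ADRr minus parent) with its standard error for the 20 tested genes of the junctional plaque and nectins (left) and the 11 tested genes of the other cadherin superfamily (right), coloured by call. ARVCF (1.41) and DSP (1.10) are at the top and ACTN4 (-1.22) at the bottom of the left panel, and FAT1 (-2.62) is the lowest of the right panel.

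Of 20 regulators of cadherin transcription, turnover and cleavage, 14 were tested, 7 were called higher and 2 lower (median 0.24). ZEB1, a repressor of CDH1 transcription, rose from 904 ± 88.0 to 1851 ± 45.1 normalized counts (1.04 ± 0.0683, adjusted p = 7.2e-12), and its relative ZEB2 rose by 0.71 on the log2 scale. ESRP1, a splicing regulator of epithelial cells, also rose, from 1.71 ± 0.602 to 21.6 ± 4.95 (3.57 ± 0.558, adjusted p = 6.7e-06). Its counts were 1, 2 and 2 in parent and 28, 16 and 23 in ADRr libraries. ESRP1 therefore passed the filter through the ADRr group, and the direction of its call is not independent of the filter. SNAI1 (0.18, adjusted p = 0.69) and SNAI2 (-0.24, adjusted p = 0.0029) were not called, and TWIST1 and TWIST2 had no counts. ADAM10, the protease that sheds E- and N-cadherin, fell from 9622 ± 568 to 2954 ± 101 (-1.70 ± 0.0535, adjusted p = 1.4e-17), and RAB11A, which returns E-cadherin to the surface, fell by 0.90.

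Of 20 chromatin factors known to act on clustered protocadherins, all were tested, 6 were called higher and 7 lower (median -0.04). The shares over all tested genes were 29.2% called higher and 29.6% lower. The cohesin subunits SMC1A (6953 ± 219 to 2943 ± 169 normalized counts, -1.24 ± 0.053, adjusted p = 3.3e-15) and RAD21 (7939 ± 515 to 3729 ± 123, -1.09 ± 0.0535, adjusted p = 3.9e-14) fell. Their partner SMC3 rose by 0.37 (SE 0.0642, adjusted p = 2.2e-05), as did LRIF1, a partner of SMCHD1, by 0.45 (SE 0.0959, adjusted p = 0.00028). CTCF, the factor that binds these promoters, was at -0.16 (adjusted p = 0.031) and not called, and neither were SMCHD1 (-0.12, adjusted p = 0.099) and REST (-0.03, adjusted p = 0.76).

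Markers of epithelial and mesenchymal state moved both ways beside the cadherins. For comparison, 29.2% of all tested genes were called higher and 29.6% lower. Of 15 epithelial genes, 14 were tested, 6 called higher and 7 lower (median -0.33). The tight junction and adhesion genes CLDN7 (1.36 ± 0.0919, adjusted p = 1.1e-11) and EPCAM (1.10 ± 0.119, adjusted p = 3.2e-08) rose, while MUC1 (-3.24 ± 0.14, adjusted p = 4.3e-15) and KRT8 (-2.0 ± 0.0564, adjusted p = 2e-18) fell. Of 15 mesenchymal genes, 12 were tested, 4 called higher and 7 lower (median -0.59). COL6A2 (2.34 ± 0.0641, adjusted p = 1.3e-18) and COL6A1 (1.72 ± 0.0616, adjusted p = 1.4e-16) rose, while PDGFRB (-2.90 ± 0.0901, adjusted p = 1.2e-17) and LOX (-1.38 ± 0.0892, adjusted p = 5.3e-12) fell.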

How the data were processed

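Total RNA from 6 samples was sequenced by the study. Sample labels name an RNeasy extraction and a TruSeq cluster kit. The study's methods name both kits as well, and also polyadenylated RNA and CORALL libraries. According to the submitters' processing notes the authors used fastp, HISAT2 2.0.5, featureCounts 1.5.0-p3 and DESeq2 1.20.0 with GRCh38. Strandedness is not given in the sources used here, so reads of overlapping antisense genes cannot be told apart. The deposited tables hold raw counts (whole numbers, not normalized) and FPKM values made by the authors, in which counts are divided by gene length and sequenced reads.

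Counts were fitted across all genes with edgeR 4.0.16 in R 4.3.3 (TMM scaling, filterByExpr, quasi-likelihood test, parent against ADRr). DESeq2 1.42.0 and limma 3.58.1 (limma-trend on log2 FPKM plus 1 or 0.1, filter at 0.5 FPKM) served as alternatives, besides other scalings, filters, a replicate block, thresholds and leaving out each library. The fitting was tested on simulated data. Neighbours were the 25 nearest tested genes on each side that were not members. Exon overlaps were taken from the gene annotation, and promoter sequences from RefSeq.

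The members and gene lists were chosen with earlier results of these data known. Named were all tested members outside the clusters, per cluster the 4 called genes with the largest change and the 2 with the highest FPKM, untested members with 10 or more counts in a library, and in each list the 2 largest called increases and decreases. PCDHB5, PCDHB6, PCDHB9, PCDHB10, PCDHGA4, PCDHGA5, PCDHGA6, PCDHGB6 and PCDHGC5, other genes with few counts and the further list genes were named after their values were seen.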

Additional observations from a re-analysis of the deposited data

How the results depend on the processing

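When any 1 library was left out, no call of a cadherin, catenin, desmosomal or non-clustered protocadherin gene changed. Among the called clustered genes, only PCDHB12 lost its call in these fits. Other settings changed the counts of calls both inside and outside the clusters. Members called higher numbered 6, and 3 in limma-trend on log2(FPKM + 1) or log2(FPKM + 0.1), where only 16 members passed the filter. Other members called higher numbered 5, and 3 in both of these fits. Clustered protocadherins called higher numbered 1, and 0 in both limma-trend fits and with at least 10 counts in every library, and from 1 to 2 when 1 library was left out, the 2 being without parent replicate 1, where PCDHB9 was added. Clustered protocadherins called lower numbered 7, and 4 with at least 10 counts in every library, in both limma-trend fits and at an absolute log2 fold change of 1.2, and 3 in limma-trend without a filter, for which the cause was not tested. At an absolute log2 fold change of 1.2 the members called lower fell from 13 to 6 and the other members called lower from 6 to 2. CTNND1, not called, ranged from -0.02 to 0.01 when 1 library was left out, with a negative sign without parent replicate 1 (-0.02) and without ADRr replicate 3 (-0.005). The fold changes of low genes depend on the scale: on log2(FPKM + 1) without a filter, PCDHGA9 was at -0.23 and CDH23 at 0.10. Replicate numbers did not pair the samples (correlations of same-numbered deviations 0.00735, -0.0213 and -0.0457). With a replicate block 6 members were called higher and 13 lower, as without it, and 4406 genes were called higher and 4464 lower over all genes, against 4451 and 4507. Depth limits the 36 members whose highest count was 1 to 9: none was tested. The intervals given for some of them cover counting error only. The fold values over a floor of 3 counts leave out the counting error of the other group.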

Other observations

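Beside the protein-coding members, 20 pseudogenes and antisense or other noncoding genes bear names of this family. Of these, 13 had no count in any library, none reached 10 counts and none was tested. DSG2-AS1, the antisense partner of DSG2, had 0, 2 and 0 counts in parent and 2, 7 and 6 in ADRr libraries. The beta pseudogene PCDHB18P had 4, 1 and 6 counts in parent and 6, 2 and 2 in ADRr libraries, and PCDHB19P had 4, 2 and 2 and then 7, 0 and 3, with overlap for both. These genes were chosen after their values were seen.

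Among the marker lists, the synaptic genes SNAP25 (2.87 ± 0.459, adjusted p = 9.3e-06, edgeR) and SYT1 (2.23 ± 0.25, adjusted p = 5.5e-08) rose on the log2 scale in ADRr cells. SNAP25 had 6, 1 and 6 counts in parent and 27, 32 and 43 in ADRr libraries. It therefore passed the filter through the ADRr group, and the direction of its call is not independent of the filter. All 15 alpha protocadherins stayed at 3 or fewer counts in each library together. The endothelial guidance receptor ROBO4 rose from 808 ± 112 to 2291 ± 57.5 normalized counts (1.5 ± 0.0749, adjusted p = 5e-14) and KDR, a receptor for VEGF, from 65.5 ± 17.7 to 138 ± 14.8 (1.07 ± 0.188, adjusted p = 2.9e-05). PECAM1 was not called (0.21, adjusted p = 0.74). LAPTM5 (0.68 ± 0.0631, adjusted p = 2.7e-09) and CORO1A (1.27 ± 0.203, adjusted p = 9.2e-06) of the leukocyte list rose as well.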
